A study of Mus musculus with 2 samples.

Results

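Divergent promoters are stretches of DNA from which 2 protein-coding genes are transcribed away from each other, the left gene from the minus strand and the right gene from the plus strand. Pairs were taken from the mouse gene annotation GENCODE M21 (build mm10), where the annotated 5′ ends of a minus-strand and a plus-strand gene, the transcription start sites (TSSs), point apart and lie at most 1000 bp from each other. This rule used no measured value and gave 754 pairs from 1487 genes, 6.78% of the 21938 protein-coding genes, with 21 genes in more than 1 pair. The members are the DNase-seq peaks that overlap the stretch between the TSSs widened by 200 bp on each side. They were 889 of 157595 peaks in replicate 1 (0.564%) and 925 of 166206 in replicate 2 (0.557%).

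DNase-seq cuts the DNA of isolated nuclei with the nuclease DNase I, and stretches where cuts are frequent are taken as open chromatin. The libraries came from whole adrenal gland of female mice of the hybrid strain B6CASTF1/J, aged 36 days, with no treatment named in the labels. There was 1 group of 2 libraries, biological replicates 1 and 2, whose source animals carry different numbers in the labels, and no second condition. No test between conditions was therefore possible, SDs below are over n = 2 libraries, and every difference between sets of promoters is a description of these libraries that was not tested.

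An active mammalian promoter is kept free of nucleosomes by transcription factors and the transcription machinery, and most promoters of widely used genes lie in CpG islands, where the dinucleotide CpG has not been lost. Divergent pairs commonly share 1 such island, so that a single open stretch can serve both genes. The arrangement is known to be frequent among genes for DNA repair, mitochondrial proteins and other functions needed in every cell, and the factors NRF1, ETS family members, YY1 and NF-Y are known to bind such promoters.

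Sequences of 8 pairs show what lies between the TSSs in open and closed pairs. They were read from the RefSeq assembly GRCm38.p6, the same build as mm10, on the plus strand, so that the minus-strand gene starts to the left and the plus-strand gene to the right. Each is the longest stretch between the TSSs that holds no exon in GENCODE or RefSeq. Capitals mark bases inside a footprint in both libraries, a footprint being a short stretch protected from cutting within open chromatin. Pdhx/Apip at chr2:103073514-103073674 and Fbh1/Ankrd16 at chr2:11777586-11777752 are shown as pairs with very tall peaks.
Pdhx/Apip: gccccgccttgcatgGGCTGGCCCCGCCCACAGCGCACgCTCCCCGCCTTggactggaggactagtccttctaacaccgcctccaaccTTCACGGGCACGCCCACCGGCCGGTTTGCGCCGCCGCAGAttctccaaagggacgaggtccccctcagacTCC
Fbh1/Ankrd16: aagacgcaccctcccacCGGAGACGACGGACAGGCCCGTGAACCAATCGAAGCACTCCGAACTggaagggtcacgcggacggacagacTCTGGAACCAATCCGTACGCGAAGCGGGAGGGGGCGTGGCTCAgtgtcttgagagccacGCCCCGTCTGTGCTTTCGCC
Gtf3c1/D430042O09Rik at chr7:125707781-125707854 is shown for its cyclic AMP response element TGACGTCA, Rps6kb1/Tubd1 at chr11:86544886-86544990 for its NRF1 core GCATGCGC, and Cdr2/Mfsd13b at chr7:120982313-120982441 for its CCAAT boxes.
Gtf3c1/D430042O09Rik: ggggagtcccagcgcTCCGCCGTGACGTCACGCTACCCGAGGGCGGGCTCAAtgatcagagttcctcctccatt
Rps6kb1/Tubd1: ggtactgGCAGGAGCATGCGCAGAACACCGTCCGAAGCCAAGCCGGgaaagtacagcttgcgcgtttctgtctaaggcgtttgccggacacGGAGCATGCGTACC
Cdr2/Mfsd13b: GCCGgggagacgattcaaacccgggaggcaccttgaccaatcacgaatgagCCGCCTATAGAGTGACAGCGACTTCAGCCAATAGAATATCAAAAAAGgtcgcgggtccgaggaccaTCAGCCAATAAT
Nadsyn1/Dhcr7 at chr7:143822863-143823144 is shown as the tallest pair with a gene of cholesterol synthesis, Hist2h2ac/Hist2h2be at chr3:96220881-96221071 as a histone pair with a TATA box (TATAAA, read on the plus strand as TTTATA), and Patl2/Terb2 at chr2:122186190-122186271 as a pair with no peak.
Nadsyn1/Dhcr7: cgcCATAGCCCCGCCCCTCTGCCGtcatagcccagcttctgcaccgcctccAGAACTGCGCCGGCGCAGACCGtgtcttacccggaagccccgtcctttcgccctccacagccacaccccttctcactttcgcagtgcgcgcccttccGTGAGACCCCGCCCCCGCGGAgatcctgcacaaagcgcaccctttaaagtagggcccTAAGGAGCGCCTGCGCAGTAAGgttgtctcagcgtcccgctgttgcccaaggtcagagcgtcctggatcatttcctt
Hist2h2ac/Hist2h2be: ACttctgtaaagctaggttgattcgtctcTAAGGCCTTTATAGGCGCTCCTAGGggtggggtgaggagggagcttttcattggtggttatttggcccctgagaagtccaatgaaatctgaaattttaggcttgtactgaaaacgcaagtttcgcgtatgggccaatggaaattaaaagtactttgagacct
Patl2/Terb2: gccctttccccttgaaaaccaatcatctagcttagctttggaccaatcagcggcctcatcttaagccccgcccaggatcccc
In the first 5 sequences the capitals cover 77 of 161, 109 of 167, 37 of 74, 53 of 105 and 63 of 129 bases. They cover 86 of 282 bases at Nadsyn1/Dhcr7, 27 of 191 at Hist2h2ac/Hist2h2be and 0 of 82 at Patl2/Terb2. The last also holds a CCAAT box and a GC box (GGGCGG, here as CCGCCC). It was picked for having no peak, and none of the 31 pairs without a peak held a footprint.

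Nearly all divergent promoters were open in both glands. A peak was present at 717 of the 754 pairs in replicate 1 (95.1%) and at 721 in replicate 2 (95.6%). The background was 55.1% and 56.2% of one-way genes, which are protein-coding genes with no other protein-coding TSS within 1 kb, scored within 200 bp of the TSS. It was 59.1% and 60.1% of all protein-coding genes, and 82.4% and 83.1% of one-way genes with a noncoding partner, a noncoding gene that starts divergently within 1 kb. Among CpG-rich one-way genes it was 94.1% and 94.9%. Scored per gene like these, the 1487 divergent genes, CpG-rich or not, had a peak in 92.5% and 93.4%. This was below the CpG-rich one-way genes, while the CpG-rich divergent genes had 98.0% and 98.3%. The interval of a pair is wider and holds both TSSs. CpG-rich means an observed over expected CpG ratio of at least 0.6 and a GC content of at least 50% over 500 bp on either side. Both libraries had a peak at 715 pairs, neither at 31, and 8 pairs had one in a single library.

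The 8 pairs open in a single library had low peaks, of 0.243 to 0.891. Stap2/Mpnd (0.841) and Ptchd1/Gm15155 (0.243) had a peak in replicate 1 alone. Tssk3/Fam229a (0.891), Sox6/1110004F10Rik (0.591), Bhmt2/Dmgdh (0.556), Slc27a5/Trim28 (0.547), Rad51c/Tex14 (0.547) and Trpc5/Rtl4 (0.468) had one in replicate 2 alone. These heights lie below the median of all peaks, 0.897 in replicate 1 and 0.997 in replicate 2.

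The height of a peak is the authors' deposited signal, scaled in a way that the sources used here do not state, and values compare within a library. Counting pairs without a peak as 0, the tallest peak per pair had a median of 11.1 in replicate 1 and 16.3 in replicate 2 (mean 13.7 ± 3.71 SD). Heights were mostly greater in replicate 2, as given below. The SDs of heights here and below include this offset between the libraries and do not measure the spread of single promoters. The middle of the distribution (25th to 75th percentile) ran from 7.03 to 14.7 in replicate 1 and from 10.4 to 21.6 in replicate 2. The member peaks made up 2.96% and 3.16% of the summed height of all peaks, and 94 and 96 of the 1000 tallest peaks of each library. They were 220 and 200 bp wide at the median, against 180 and 171 bp for all peaks. The tallest peaks within 200 bp of CpG-rich one-way TSSs had the same median widths, 220 and 200 bp. The tallest member, at Hjurp/Trpm8, was the second tallest peak of the genome in both libraries.

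**Figure D1:**
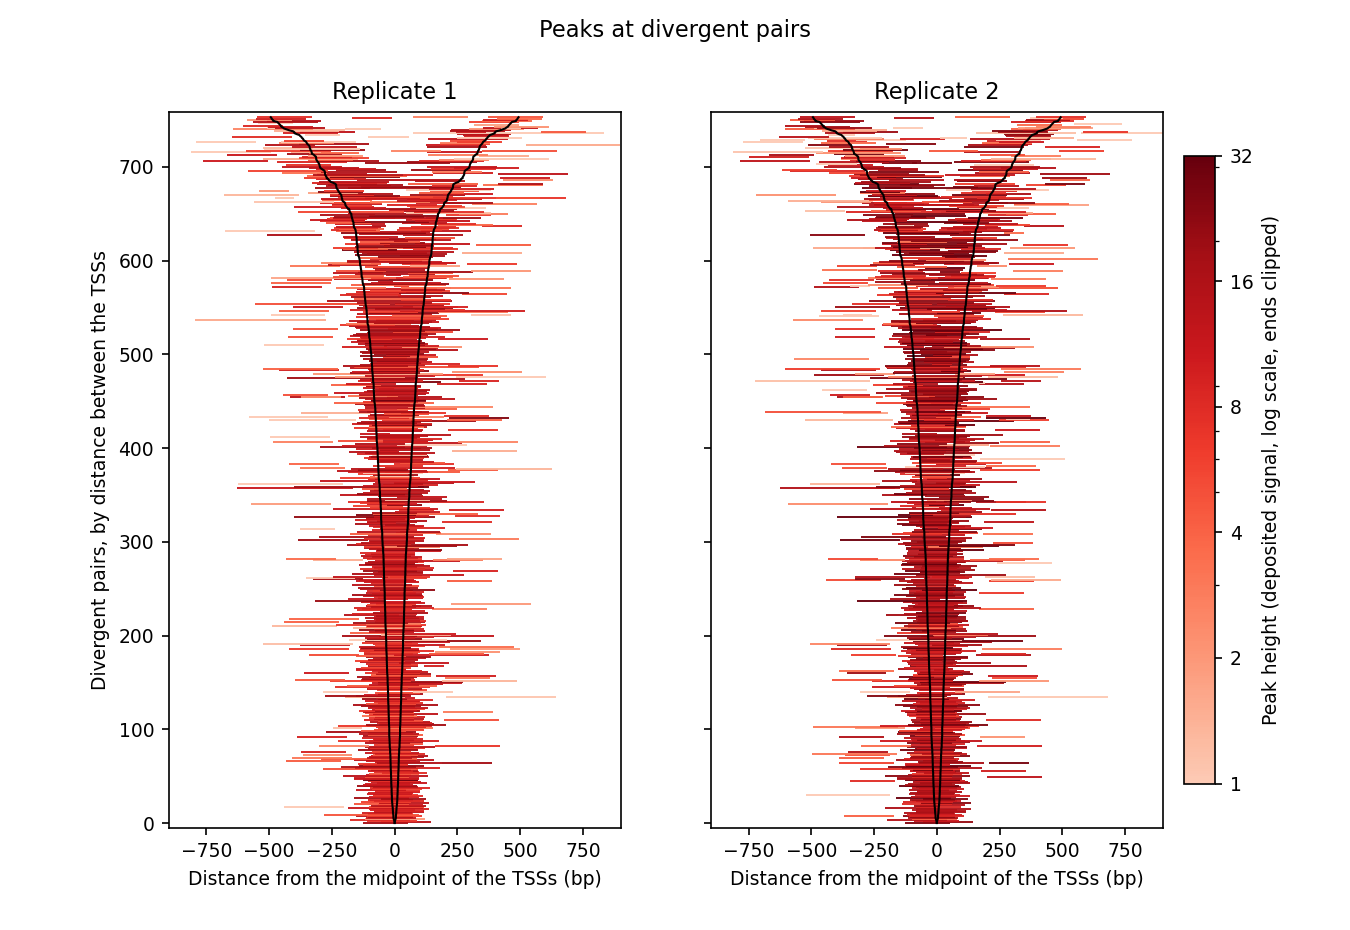
Each horizontal bar is a peak at 1 of the 754 pairs, placed by its distance in bp from the midpoint of the TSSs (x axis) with pairs ordered by TSS distance (y axis), coloured by deposited height on a log scale, and black lines mark the TSSs. Bars span both lines in most pairs under 100 bp apart. Of the 91 pairs over 400 bp apart, both TSSs lay in peaks at 36 and 40, and just 1 of them at 40 and 35.

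The annotation and the tissue were checked once. All 5 cortex markers (Nr5a1, Star, Cyp11a1, Cyp11b1, Cyp21a1) had a peak within 1 kb of a TSS in both libraries, as did 3 and 4 of 4 medulla markers, with Pnmt at 0 in replicate 1. Of the 3 kidney and 2 liver markers, 1 and 0 had a peak in each library, the kidney gene Lrp2 at 0.458 and 0.627. Of the 2 fat markers Plin1 had one, at 2.90 and 2.33.

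The share of pairs with 1 peak over both TSSs fell with the distance between them. The median distance was 129.5 bp, with quartiles of 67 and 240 bp and extremes of 1 and 987 bp. A single peak reached both TSSs at 429 pairs in replicate 1 (56.9%) and 398 in replicate 2 (52.8%). For the 312 pairs 1 to 100 bp apart this share was 90.1% and 86.5%. It was 55.8% and 49.5% for the 206 pairs over 100 and up to 200 bp apart, and 21.4% and 17.9% for the 145 pairs over 200 and up to 400 bp apart. Among the 91 pairs over 400 bp apart it was 2.20% and 0%. Over all pairs both TSSs lay in peaks, shared or separate, at 495 and 474. Just 1 of the TSSs lay in a peak at 180 and 202 pairs, and neither at 42 and 45 pairs with a peak.

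Height changed little with distance. The median height was 10.5 and 15.7 at 1 to 100 bp, 11.7 and 16.7 in the next class, 12.0 and 18.3 in the third, and 10.5 and 15.7 over 400 bp. Across pairs, which are not replicates, Spearman's rho between distance and mean height was 0.0572. The share of pairs with a peak was between 91.2% and 97.1% in all 4 classes of both libraries.

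How often the tallest peak sat between the genes differed with the distance between their TSSs. Its centre lay between the TSSs in 67.5% and 66.0% of the pairs with a peak. For pairs 1 to 100 bp apart this share was 52.8% and 53.5%, and for those over 400 bp apart 80.7% and 76.5%. A peak had to overlap the widened interval to be counted, so the share depends on the length of that interval. At the median the centre was 1.5 and 1.0 bp left of the midpoint. Regardless of side, the median offset from the midpoint was 34.5 and 38 bp, and over 400 bp apart it was 246 and 255.5 bp. Several peaks overlapped the widened interval at 172 and 198 pairs, and a single one at 545 and 523.

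At 61 pairs each TSS had its own separate peak in both libraries. These pairs had a median TSS distance of 398 bp, and the taller peak exceeded the lower 1.65-fold and 1.69-fold at the median. The same TSS had the taller peak in both libraries at 55 of the 61. The pairs named next were singled out after their values were seen. At Wrn/Purg, 798 bp apart, the peak at Wrn, a RecQ helicase gene, measured 9.21 and 15.7, and that at Purg measured 0.579 and 1.15. At Abca17/Abca3, 882 bp apart, the side of Abca3, a lipid transporter of lung surfactant, had 12.5 and 19.6 against 0.981 and 1.20 for Abca17. At Foxa3/Sympk, 839 bp apart, Sympk, a scaffold of messenger RNA 3′ end formation, had 14.6 and 16.5 against 1.27 and 1.48 for Foxa3, a hepatic and gut transcription factor. In each of these 3 pairs the same gene had the taller peak in both libraries, and the lower side was still a called peak.

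The deposited table of false discovery rates came from the same alignments and shows how far open chromatin reached beyond the borders of the peaks. Positions listed at a rate of at most 0.001 are called open here. The whole stretch between the TSSs was open at 662 pairs in replicate 1 (87.8%) and 664 in replicate 2 (88.1%), including 44 and 46 of the 91 pairs over 400 bp apart. The longest open run at a pair had a median of 798 and 914 bp. At Wrn/Purg all of the stretch was open in both libraries, whereas at Abca17/Abca3 49.8% and 52.7% of it was. The separate peaks were thus joined by open positions in the first pair. In the second the other positions did not reach the rate of 0.001, which does not show that they were closed.

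Seen from each gene, CpG-rich divergent promoters were open farther upstream than CpG-rich one-way promoters and less far downstream. Of the 1000 bp upstream of the TSS, the 1224 CpG-rich divergent genes had on average 552 and 590 bp open, against 337 and 356 bp for the 7624 CpG-rich one-way genes. Of the 1000 bp downstream they had 427 and 470 bp open, against 489 and 557 bp. At 500 bp upstream 51.8% and 58.7% of the divergent genes were open, and 19.3% and 21.6% of the one-way genes. At 500 bp downstream the order was the opposite, with 32.4% and 38.6% against 46.7% and 56.7%. The upstream side of one gene is the downstream side of its partner, so the windows of the 2 genes of a pair overlap, and the upstream values of a gene include the start of its partner.

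One-way genes with a noncoding partner lay between. The 618 that were CpG-rich had 428 and 454 bp open upstream and 482 and 558 bp downstream. Their upstream extent was thus above that of all one-way genes and below that of the divergent pairs, and their downstream extent was near that of all one-way genes.

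**Figure D2:**
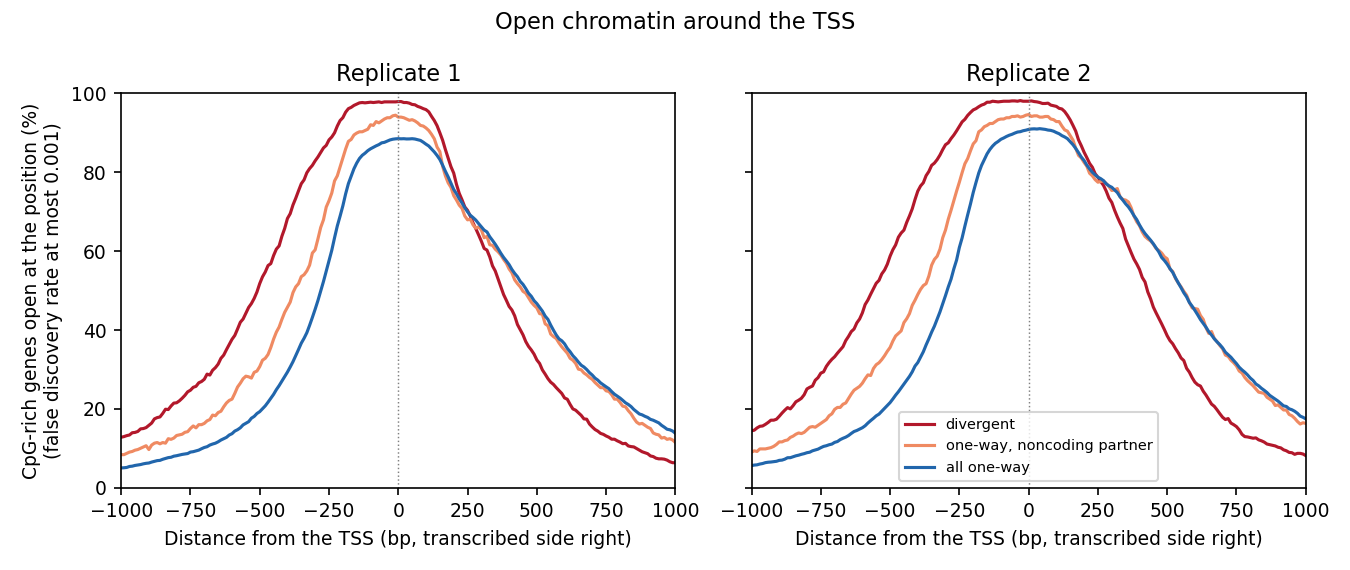
Share of CpG-rich genes (y axis, percent) open at each position around the TSS (x axis, bp, with the transcribed side to the right), for divergent genes, one-way genes with a noncoding partner and all one-way genes, in each replicate. The divergent curve is highest upstream, at 51.8% and 58.7% at 500 bp before the TSS, and lowest beyond about 300 bp downstream.

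Divergent promoters were also taller than one-way promoters of similar CpG content. With the tallest peak within 200 bp of each TSS, and 0 where there was none, the 1224 CpG-rich divergent genes had median heights of 11.4 and 16.8. The CpG-rich one-way genes had 7.87 and 11.7, so that the medians stood in a ratio of 1.45 in replicate 1 and 1.44 in replicate 2 (mean 1.45 ± 0.0115 SD). The CpG-rich genes with a noncoding partner lay between, at 9.79 and 14.3. A peak was present at 98.0% and 98.3% of the CpG-rich divergent genes and at 96.4% and 96.9% of those with a noncoding partner. The 2 genes of a pair often share a peak, which then counts for both.

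The ratio differed between levels of CpG content. At CpG ratios of 0.4 to 0.6 the divergent genes had medians of 6.76 and 10.1 against 1.34 and 1.94, a ratio of 5.06 and 5.205. It was 1.70 and 1.64 at 0.6 to 0.8, 1.26 and 1.26 at 0.8 to 1.0, and 1.40 and 1.35 at 1.0 and above, where there were 49 divergent genes. Below 0.4 the median was 0 in both sets, so no ratio was formed. The CpG-rich fraction itself was 82.3% of the divergent genes and 39.8% of the one-way genes. Without regard to CpG content the ratio of medians was 14.8 and 16.1, with a one-way median of 0.719 and 0.962 that lay near 0. Among genes with a peak it was 1.82 and 1.83.

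**Figure D3:**
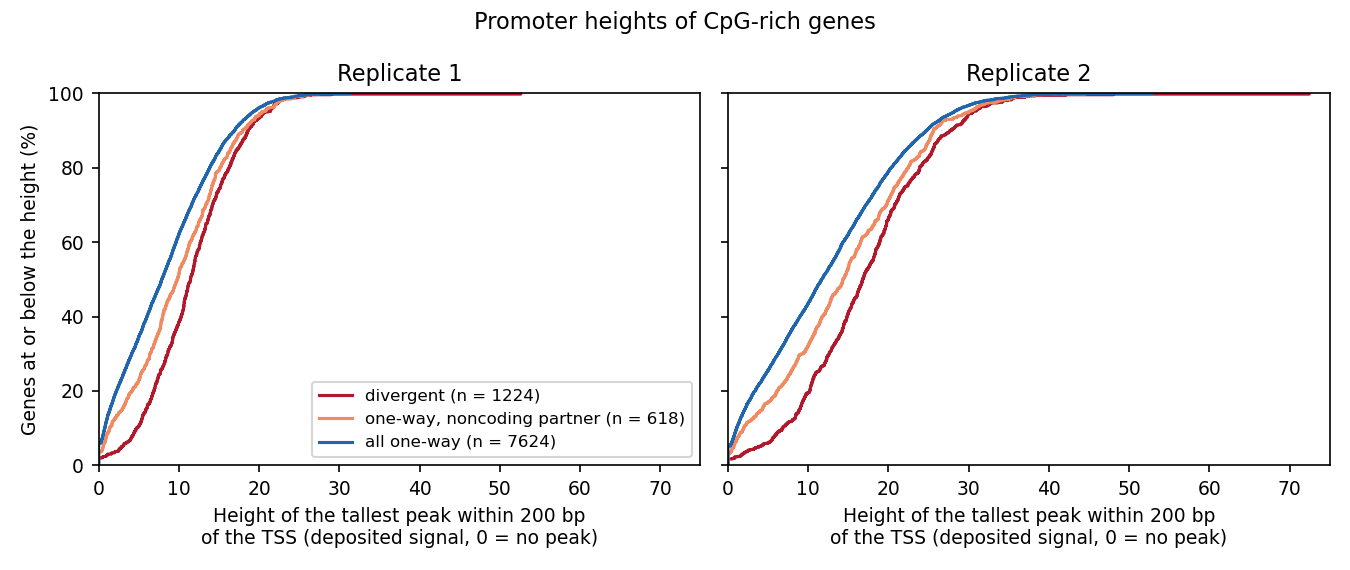
Cumulative share of CpG-rich genes (y axis, percent) at or below a given promoter height (x axis, deposited signal, 0 where there is no peak), for the 1224 divergent genes, the 618 one-way genes with a noncoding partner and all 7624 one-way genes in each replicate. The divergent curve lies to the right of the one-way curve through most of the range, with medians of 11.4 and 16.8 against 7.87 and 11.7.

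The tallest divergent promoters belonged to genes of varied function. Hjurp, a chaperone that loads the centromeric histone CENP-A, and Trpm8, a cold-sensing ion channel, start 28 bp apart and had a peak of 52.6 and 72.4 (mean 62.5 ± 14.0 SD) that covered both TSSs. This was far above the next pair, and of the 27 bp between the TSSs the 16 outside annotated exons held no base inside a footprint of both libraries. Pdhx, a component of the pyruvate dehydrogenase complex, and Apip, an enzyme of methionine salvage, are 162 bp apart and had 29.0 and 48.0. Fbh1, a DNA helicase, and Ankrd16 had 25.9 and 42.1 over 294 bp.

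Other pairs among the 8 tallest were close in height. Dnajb4, a co-chaperone, and Fubp1, a DNA-binding regulator of Myc, had 26.4 and 38.3. Rita1 and Ddx54, an RNA helicase, had 24.8 and 37.2, and Apaf1, the core of the apoptosome, and Ikbip had 25.6 and 35.3. All 8 were taller in replicate 2, and each had 4 to 10 footprints per library.

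Genes of the mitochondrion were frequent among the pairs. Of 78 genes for proteins of the mitochondrial ribosome 18 were divergent (23.1%, against 6.78% of all genes). All 18 pairs had a peak in both libraries, against 95.1% and 95.6% of all pairs, with medians of 9.02 and 14.9. They ran from Zfp661/Mrps5 at 4.46 and 6.37 to Mrpl49/Fau at 16.3 and 25.8. Of 94 respiratory chain genes and assembly factors 23 were divergent (24.5%), 22 of their 23 pairs had a peak, and the medians were 11.4 and 16.7. The tallest was Wdr4/Ndufv3, with a subunit of complex I, at 19.7 and 30.4. The exception without a peak was Ndufa5/Asb15, described below.

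Genes of DNA repair and replication had the most pairs of any list. Of 158 such genes 45 were divergent (28.5%), in 47 pairs of which 45 and 46 had a peak, with medians of 11.4 and 17.0. Atm, the kinase that signals DNA breaks, and Npat, a coactivator of histone genes, had the tallest, 22.4 and 37.0 (mean 29.7 ± 10.3 SD). Mcm4, a subunit of the replicative helicase, and Prkdc, the catalytic subunit of DNA-dependent protein kinase, had 14.6 and 22.1 and separate peaks at each TSS. Brca1, a factor of homologous recombination, and Nbr1, an autophagy receptor, had 9.21 and 12.2, with the taller of 2 peaks at Brca1 and one of 2.21 and 2.32 at Nbr1. Of the pairs often cited as examples of shared promoters that met the rule, these 3 and Mrps12/Sars2, at 8.85 and 14.2, all had a peak in both libraries.

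Other housekeeping lists had fewer pairs. For 24 pairs with a gene of the transcription machinery (RNA polymerase subunits, Mediator, TAF and general factors) all had a peak, with medians of 11.0 and 16.3, and the tallest was Gtf3c1/D430042O09Rik, with the largest subunit of TFIIIC, at 24.9 and 35.7. All 8 pairs with a proteasome gene had a peak (medians 10.2 and 14.7), the tallest being Ftsj3/Psmc5 at 16.5 and 28.2. All 12 with a chaperone gene did (12.0 and 16.8), from Sirt1/Dnajc12 at 0.944 and 1.42 to Dnajb4/Fubp1. All 5 with an aminoacyl-tRNA synthetase did (9.94 and 15.2). Over all pairs 95.1% and 95.6% had a peak, and the medians were 11.1 and 16.3. A peak at every pair of such short lists thus lies near the common share. Of the 104 genes of the transcription machinery 23.1% were divergent, and of the 50 proteasome genes 16%. The shares were 15.7% of 83 chaperone genes and 13.5% of 37 synthetase genes, against 6.78% of all genes.

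Lists made by gene symbol need care. Of the 10 pairs of the cytosolic ribosome list 9 had a peak, with medians of 10.7 and 15.6, but its tallest by mean, Rps6kb1/Tubd1 at 21.5 and 34.8, is there for the S6 kinase Rps6kb1, which is no ribosomal protein. Among true ribosomal protein genes the tallest was Med22/Rpl7a at 21.8 and 32.8. The list of zinc finger proteins had 19 pairs, 18 with a peak, medians of 11.1 and 16.7 and Zfp654/Cggbp1 as the tallest at 22.3 and 35.3, and 5.29% of its 397 genes were divergent. The collagen IV list had 2 pairs. Col4a4/Col4a3, 2 chains of basement membrane collagen, had 1.35 and 2.97, and Polk/Col4a3bp, whose second gene encodes a ceramide transfer protein and no collagen, had 13.8 and 21.9.

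Of 56 steroid and cholesterol genes 4 were divergent (7.14%, near the 6.78% of all genes), and the medians of their 4 pairs were 15.97 and 23.1. Dhcr7, the last enzyme of cholesterol synthesis, and Nadsyn1, a synthetase of NAD, had 22.9 and 34.1 (mean 28.5 ± 7.87 SD). Npc2, which carries cholesterol out of lysosomes, and Isca2 had 16.8 and 25.1. Mvk, the mevalonate kinase, and Mmab, an enzyme of vitamin B12 metabolism, had 15.2 and 21.0, and Nsdhl, a sterol dehydrogenase, and Cetn2 had 6.95 and 10.3. Of the 4 pairs 3 lay above the 75th percentile of all pairs in replicate 1 and 2 in replicate 2, while the pair of Nsdhl was below the 25th percentile in both. With so few pairs the median describes only these.

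Peaks of the pairs were higher in replicate 2 with few exceptions. Of the 715 pairs with a peak in both libraries 702 were higher in replicate 2 and 13 in replicate 1, and the median log2 ratio of replicate 2 over replicate 1 was 0.58 (SD 0.22 over pairs). The same median was 0.57 for one-way genes and 0.58 for CpG-rich one-way genes. The pairs therefore shared the offset of all promoters. Spearman's rho of the heights between libraries was 0.971 over these pairs. Among pairs whose height averaged over the libraries was at or above the median pair, those farthest from the common ratio were Elp4/Immp1l at 14.5 and 16.2, Zcchc17/Snrnp40 at 18.5 and 20.9, Foxa3/Sympk, Cdr2/Mfsd13b at 14.5 and 14.5, and Tepsin/Ndufaf8 at 14.96 and 17.0, which all gained less in replicate 2 than the median pair. Just below that median height Sgsh/Slc26a11, at 9.02 and 18.4, gained more.

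Pairs of replication-dependent histone genes went against this order. Such genes are expressed in S phase and lie in clusters. The list was taken by gene symbol, so it can also hold histone genes of another kind. Of its 67 genes 27 (40.3%) were divergent, in 14 pairs. A peak was present at 11 of the 14 in both libraries, and 8 of the 11 were higher in replicate 1, against 5 of the 704 other pairs. Their median log2 ratio was -0.29, from -1.24 to 0.47, against 0.59 for the other pairs. Hist1h2ak/Hist1h2bn had 3.74 and 1.58, Hist1h2bl/Hist1h2ai 4.24 and 2.47, and Hist1h2bh/Hist1h3f 3.75 and 2.25. The tallest, Hist2h2ac/Hist2h2be, had 8.23 and 6.75, while Hist1h2ac/Hist1h2bc, at 4.13 and 5.60, kept the common direction. These pairs were also low, with medians of 3.94 and 2.94 over all 14, although their median CpG ratio was 0.937 against 0.773 over all pairs.

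Histone clusters hold many near-identical copies. The median share of 32-base words in the widened interval that occur once in the genome was 62.4% for the histone pairs and 100% for all pairs, and 11 of the 14 lay under 90%. Hist1h2bq/Hist1h2ao and Hist1h2ap/Hist1h2br, at 0%, had no peak in either library, and neither had Hist1h2ba/Hist1h2aa, at 98.8%. Of the 32 other pairs under 90%, 25 had a peak in both libraries, and 24 of those 25 were higher in replicate 2, with a median log2 ratio of 0.62. Hist1h2bh/Hist1h3f, at 91.5%, was among those higher in replicate 1, and Hist1h2ac/Hist1h2bc, at 62.6%, was higher in replicate 2. The part of repeated sequence in this order was not tested.

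**Figure D4:**
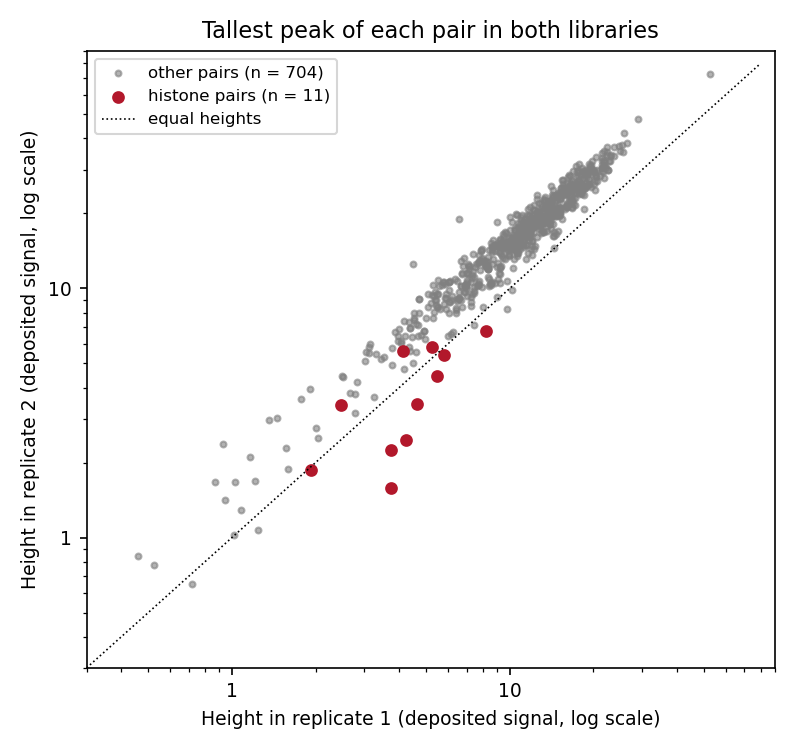
Height of the tallest peak of each pair in replicate 1 (x axis) and replicate 2 (y axis), both deposited signal on log scales, for 704 other pairs (grey) and 11 histone pairs (red), with a dotted line of equal heights. Nearly all grey points lie above the line and 8 of the 11 red points lie below it.

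Closed pairs were mostly CpG-poor. The 628 CpG-rich pairs had a peak in 622 and 623 cases with medians of 11.8 and 17.3, and the 126 others in 95 and 98 cases with medians of 5.98 and 8.33. The 5 lowest pairs with a peak in both libraries included Duox2/Duoxa2, the hydrogen peroxide generator of the thyroid and its maturation factor, at 0.523 and 0.777. Ddx25, a testis RNA helicase, and Pus3, a pseudouridine synthase of transfer RNA, had 0.458 and 0.847. Ifit1bl2/Ifit1, of the interferon response, had 0.719 and 0.653, Pcdh12/Rnf14 1.02 and 1.02, and Sncg/Mmrn2, of which Mmrn2 is a matrix protein of blood vessels, 1.24 and 1.08. Where 1 peak covers both TSSs its height cannot be divided between the genes.

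The 31 pairs without a peak had a median CpG ratio of 0.245. The first 8 in genome order were 4931428L18Rik/Pih1d3, Nmur1/Tex44, Patl2/Terb2, Ndufa5/Asb15, Smyd1/Cd8b1, Il11/Tmem190, Pinlyp/Xrcc1 and Lypd4/Dmrtc2. They include genes of muscle (Smyd1, a methyltransferase), T cells (Cd8b1, a coreceptor chain) and meiosis (Terb2, which tethers telomeres). In the table of false discovery rates 1 and 2 of the 31 had any listed position in the interval, with the table limited to rates under 0.05.

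For 12 of the 31 closed pairs 1 of the genes had another annotated TSS with a peak in both libraries. Ndufa5, a subunit of complex I, had a peak of 9.23 and 15.2 at a TSS 443 bp from the one of the pair. Xrcc1, a scaffold of single-strand break repair, had 19.3 and 25.8 at 861 bp, Rps2, a ribosomal protein, 13.9 and 21.2 at 1947 bp, and Ccnt1, a cyclin of transcription elongation, 20.6 and 31.6 at 3287 bp. At these pairs the annotated 5′ end of the gene was closed and a start inside the gene was open. The count of closed pairs thus depends on which TSS stands for a gene.

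Footprints lay both between the TSSs and beside them. Summed over pairs there were 4667 and 4904 within the widened intervals, or 1.57% and 1.64% of the number of all footprints. A footprint in the intervals of more than 1 pair counts for each, so these shares are upper limits. Of these footprints 44.9% and 43.3% were between the TSSs, and the median pair had 6 in both libraries. They were 13 and 14 bp wide at the median against 10 bp over all footprints, and 80.2% and 73.5% overlapped a footprint of the other replicate, against 54.1% and 52.7% of all. At pairs with a peak 16.8% and 18.8% of bases were in a footprint, near the 16.8% and 18.4% around CpG-rich one-way TSSs. The most were found at Srgap2/Fam72a (13 and 17), Cep57/Fam76b (16 and 13), Rnf5/Agpat1 (14 and 16) and Ttc9c/Hnrnpul2 (15 and 14), whose TSSs are 551 to 677 bp apart. Just 3 pairs with a peak in replicate 1 and 6 in replicate 2 held no footprint.

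The letters of 12 motifs were searched on both strands from 250 bp before to 50 bp after each TSS, and none of these motifs contains another. Against CpG-rich one-way genes, the CpG-rich divergent genes held the ETS motif CCGGAAG more often (29.7% against 16.3%), the YY1 motif AAGATGGC (9.31% against 3.86%), the palindrome bound by BANP (2.78% against 1.09%) and the CCAAT box (44.9% against 37.3%). The shares over all protein-coding genes were 10.8%, 2.93%, 0.629% and 39.1%. Among the 618 CpG-rich one-way genes with a noncoding partner they were 23.1%, 4.85%, 0.971% and 40.6%. The CpG-rich divergent genes and all CpG-rich one-way genes differ in CpG ratio by little, with medians of 0.801 and 0.782. The windows of a pair overlap where the TSSs are close, so that a match can count for both genes, and the differences were not tested.

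The remaining motifs differed by fewer percentage points than the ETS, YY1 and CCAAT motifs. The NRF1 core GCATGCGC was in 7.76% of the divergent and 5.93% of the one-way genes, the cyclic AMP response element TGACGTCA in 5.15% and 3.73%, the E-box CACGTG in 11.9% and 11.4%, and the GC box GGGCGG in 73.1% and 72.8%. Over all protein-coding genes they were in 3.72%, 2.43%, 7.77% and 43.1%. In the CpG-rich one-way genes with a noncoding partner these 4 motifs were in 7.44%, 3.72%, 10.5% and 78.2%. The TATA box TATAAA was less frequent, 3.59% against 6.22% and 12.7% over all genes. The element TCAAGGTCA, bound by the steroidogenic factor SF-1, was in 0.245% and 0.223%, against 0.474% over all genes. The ZNF143 motif ACTACAAT was in 0.899% and 0.748% (all genes 0.834%) and the AP-1 motif TGANTCA in 3.10% and 3.48% (all genes 6.92%).

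Motifs differed strongly in how often a footprint lay over them. At pairs with a peak the centre of the match was in a footprint for 90 of 100 matches of the NRF1 core in each library. For the cyclic AMP response element it was 35 and 34 of 39, and for the BANP motif 16 and 17 of 21. The NRF1 core was held by 60 pairs. Its matches on opposite strands can overlap, and a match can lie in more than 1 pair, so the 100 need not be separate sites. The ETS motif was covered in 48.7% and 54.6% of matches, the GC box in 42.6% and 45.2%, the CCAAT box in 35.0% and 37.9%, and YY1 in 25 and 31 of 96. Each exceeds the 16.8% and 18.8% of all bases. So do the E-box, at 33.1% and 32.9%, and in each library ZNF143 (5 of 12) and the TATA box (14 of 57). The AP-1 motif, at 18.0% and 19.6%, was near that level, and the SF-1 element was covered in 1 of 6 and 1 of 7 matches. In the sequences above the element of Gtf3c1/D430042O09Rik and the NRF1 core of Rps6kb1/Tubd1 are in capitals, as is the TATA box of Hist2h2ac/Hist2h2be.

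**Figure D5:**
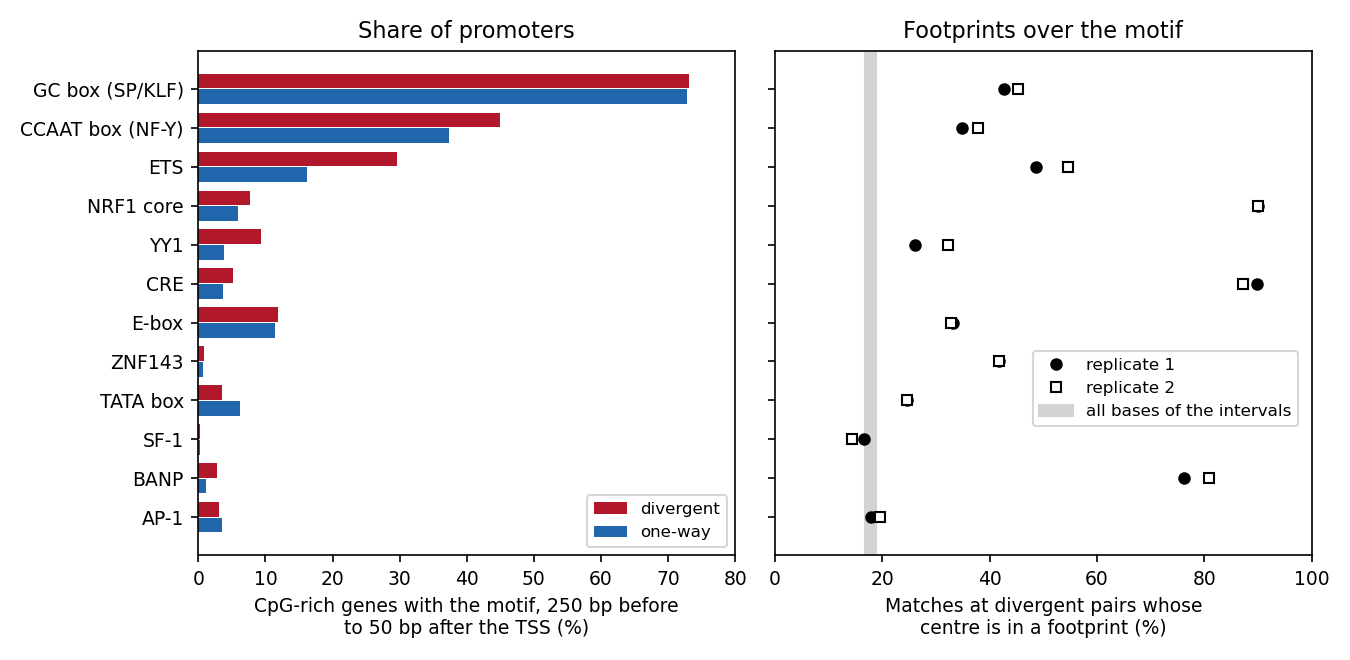
Left, share of CpG-rich divergent (red) and one-way (blue) genes with each motif from 250 bp before to 50 bp after the TSS (x axis, percent). Right, share of motif matches at divergent pairs whose centre is in a footprint (x axis, percent) in replicate 1 (filled) and replicate 2 (open), with the share of all bases in footprints in grey, where NRF1, the cyclic AMP response element and BANP stand highest at 76.2% to 90%.

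Pairs with a TATA box had lower peaks. Their median heights were 8.13 and 10.3 over 56 pairs, against 11.2 and 16.6 for pairs without one. Of the 56, 10 are histone pairs, and over the 46 others the medians were 9.78 and 15.6, against 11.2 and 16.7. All 14 histone pairs held a CCAAT box. Pairs with the cyclic AMP response element, 38 in number, had 13.2 and 19.6 against 11.0 and 16.2, and the 60 with the NRF1 core had 12.3 and 18.7 against 10.9 and 16.1. For the ETS motif the medians were 11.3 and 16.8 against 10.9 and 15.7. The GC box was in 614 pairs, with medians of 11.5 and 17.0 against 8.12 and 12.6 for pairs without it, and for the CCAAT box the medians were 11.7 and 17.0 against 10.4 and 15.2. Pairs with the E-box, by contrast, had 10.6 and 15.5 against 11.1 and 16.5. None of these differences was tested.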

How the data were processed

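The members and the gene lists were chosen with earlier results of these data known. Per the text deposited with each sample, the authors made each peak list, footprint list and table of false discovery rates from that library's own filtered alignments on mm10, without pooling. No source used here names the aligner, the peak caller or its cutoffs. Peak heights are a deposited signal. Within a library they are whole multiples of 1 step, 0.00934 in replicate 1 and 0.00883 in replicate 2 (100% within 0.05 steps). Read as single tags on a scale of 1000000, which the values allow but nothing states, these steps would mean about 1.07e+08 and 1.13e+08 tags; no counting interval is given. The rates, a p-value column as deposited by the authors, are listed under 0.05, and the footprints carry a constant 0.01.

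The longer of the 2 peak lists per library was used, with an overlap of at least 1 bp, and footprints were assigned by their centre. Python 3.11.15, numpy 2.4.6, pandas 2.3.3 and numba 0.67.0 were used, and the code was tested on simulated data. Named pairs are the 8 tallest, the 5 lowest with a peak in both libraries, up to 8 without a peak, the 5 with the most deviant replicate ratio, the 4 with most footprints, the tallest of each list and textbook pairs; pairs of other kinds were named after their values were seen. Alternatives were other TSSs, distances, widenings, peak lists, overlaps and background genes. The 754 pairs cover 752 distinct intervals, since some symbols have more than 1 gene record. Some pairs that the rule for named pairs selects are not reported here.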

Additional observations from a re-analysis of the deposited data

How the results depend on the processing

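Of 46 alternatives over 8 results that kept both libraries 24 moved the value by no more than an SD and 22 by more. The SD was that between the replicates, except for the difference between the replicates, where it was the SD over pairs. For median height that SD, 3.71, includes the offset between the libraries and is a wide limit. A reversed sign was looked for in the difference between the replicates alone and was not seen. The 2 ratios of divergent to one-way medians, over all and over CpG-rich genes, gave 20 values, all above 1. Those 20 include the reported values and the values of single replicates. With TSSs of any protein-coding transcript (999 pairs) the share of pairs with a peak was 94.8%, the share with 1 peak at both TSSs 51.6%, the ratio 7.22 and the CpG-rich ratio 1.39. With TSSs at most 500 bp apart (684 pairs) the shares were 95.9% and 60.5%. Without widening, 92.6% of pairs had a peak, the median was 2 footprints and 70.1% of tallest peaks were centred between the TSSs; with 500 bp these were 7 footprints and 65.6%. The shorter peak list gave 94.7% and a ratio of 17.6. With at least 50% of the peak in the interval the values were 94.5%, 29.4, 1.50 for CpG-rich genes and 68.6% centred between. With no other gene of any type near the one-way genes the ratios were 23.6 and 1.47, among genes with a peak 1.82 and 1.37, and without histone genes the CpG-rich ratio was 1.46. The ratio over all genes thus moved most, from 1.82 to 29.4; the cause was not tested. Leaving out 1 replicate gave 95.1% to 95.6% of pairs with a peak, median heights of 11.1 to 16.3, 52.8% to 56.9% with 1 peak at both TSSs, ratios of 14.8 to 16.1 and 1.44 to 1.45, 6 footprints, and 66.0% to 67.5% centred between. No paired analysis was possible because the 2 libraries form 1 group. Depth limits what can be said of closed pairs: no peak means no call at the authors' threshold. With 2 libraries no outlier could be tested, and single peaks over both TSSs cannot be assigned to 1 gene.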
